A study of Mus musculus with 4 samples.

Results

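The immediate early genes are the first wave of transcription that neuronal activity switches on. Calcium entry and kinase signalling act on transcription factors that already sit in the cell, such as CREB and SRF, so these genes need no new protein to be induced. Most of them code for transcription factors that set off a later wave of genes, while a few code for proteins that act at the synapse, and their mRNAs are short-lived. The group described here has 10 members of the 31053 genes in the count tables. They were chosen by name and found by Ensembl identifier through the gene symbols of GENCODE M21. There are 8 transcription factors among them (Fos, Fosb, Jun, Junb, Egr1, Egr3, Nr4a1 and Npas4), the synaptic effector Arc, and Ier2, a small nuclear protein. All 10 passed the filter on low counts, which kept 12336 genes.

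The cells were primary cortical neurons, genotype WT, which the study's methods describe as prepared from late embryonic C57BL/6J cortex and treated with floxuridine to limit dividing cells. Enhanced crosslinking and immunoprecipitation (eCLIP) was run with an antibody to RPS2, which belongs to the small ribosomal subunit, giving 2 IP libraries, and 2 total RNA libraries came from samples set aside before the pulldown. The study used IP over total RNA for each gene as a measure of ribosome occupancy in neurons. No stimulus is named for these libraries, so the values describe the cultures as they were harvested. The labels name rRNA depletion for the IP libraries only, while total RNA is marked as untreated, whereas the study's methods place the depletion after library preparation and name no libraries. If the labels hold, an effect of that step and of the pulldown cannot be told apart. Library totals ran from 4899718 to 16460545 counts, of which a single noncoding gene, Gm42418, took 42.6% and 39.8% in IP and total RNA of replicate 1 and 27.9% and 15.3% in replicate 2. The neuronal markers fixed as a list (10 of 10 detected, among them Map2, Snap25 and Slc17a7) summed to 4085 to 4630 CPM (counts scaled by effective library size) in the 4 libraries.

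Regulatory sequence was available for 6 of the members as a table of RefSeq promoters (GRCm38.p6), namely Fos, Fosb, Jun, Junb, Nr4a1 and Npas4. The 250 bases before the annotated start were searched on both strands. The letters TGACG, the core of the cAMP response element to which CREB binds, were present in 5 of the 6, against 17.8% of 32851 promoters, with Jun the exception. The whole palindromic element, TGACGTCA, which contains that core, was in 0 of the 6 windows and in 1.55% of all. Nr4a1 had 4 cores, Fos and Npas4 had 2 each, and Fosb and Junb had 1 each. A site for EGR factors, GCGNGGGCG, was in 2 of the 6, Fosb and Nr4a1 (4.7% of all). The letters TATAAA were in Fos alone (12.4% of all), and the AP-1 site TGANTCA (6.75% of all) and the CArG box bound by SRF (1.47% of all) were in 0 of the 6. A match to these letters is a description of the window and no evidence of binding. Bases further upstream and the promoters of Arc, Egr1, Egr3 and Ier2 were not searched, so an absence holds for these windows only. The 4 windows below are shown for a difference between the replicate numbers, described further on and taken by effective library size. Fos, Fosb and Npas4 differed by at least 1.5-fold in both kinds of library, while Nr4a1, with the most cores, hardly did. Of the members searched but not shown, Jun, without a core, differed as well, and Junb, with 1 core, hardly did. With scaling by total count alone, Nr4a1 and Junb also passed 1.5-fold. A relation of this difference to the cores was not tested. The windows run 5′ to 3′ on the strand of the gene and end at the base before the RefSeq start. Those of Npas4 and Nr4a1 lie inside the GENCODE bounds of their genes, given further on, and that of Fosb overlaps them at its end. Capitals mark the core TGACG or, where it lies on the other strand, CGTCA.
Fos, chr12:85473640-85473889, plus strand: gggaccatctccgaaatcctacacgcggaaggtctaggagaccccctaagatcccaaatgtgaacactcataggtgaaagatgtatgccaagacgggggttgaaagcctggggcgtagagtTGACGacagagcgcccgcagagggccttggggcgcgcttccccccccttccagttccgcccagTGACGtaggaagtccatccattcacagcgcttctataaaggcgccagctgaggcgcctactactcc
Fosb, chr7:19310046-19310295, minus strand: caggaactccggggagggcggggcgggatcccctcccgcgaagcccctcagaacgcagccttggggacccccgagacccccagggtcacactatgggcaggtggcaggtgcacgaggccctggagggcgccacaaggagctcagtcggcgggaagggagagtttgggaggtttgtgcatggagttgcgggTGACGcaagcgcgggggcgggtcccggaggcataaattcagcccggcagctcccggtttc
Npas4, chr19:4989972-4990221, minus strand: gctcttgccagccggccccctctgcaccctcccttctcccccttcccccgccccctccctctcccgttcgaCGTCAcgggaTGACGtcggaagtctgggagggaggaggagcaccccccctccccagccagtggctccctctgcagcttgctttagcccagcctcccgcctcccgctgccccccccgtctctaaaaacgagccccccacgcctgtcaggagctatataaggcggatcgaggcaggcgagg
Nr4a1, chr15:101266596-101266845, plus strand: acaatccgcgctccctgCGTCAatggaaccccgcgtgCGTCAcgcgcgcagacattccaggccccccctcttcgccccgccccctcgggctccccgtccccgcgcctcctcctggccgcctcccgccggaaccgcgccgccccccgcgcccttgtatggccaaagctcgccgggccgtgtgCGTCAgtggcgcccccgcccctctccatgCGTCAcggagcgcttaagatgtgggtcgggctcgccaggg

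The pentamer ATTTA is the core of the AU-rich elements through which many short-lived mRNAs are bound and degraded. It was present in the annotated 3′ UTR of 8 of the 10 members and of 71.0% of 12151 genes with a coding transcript, so its presence does not set the members apart. Arc and Ier2 had none. Egr3 had 7 copies in a 3′ UTR of 2645 bases, and Fos and Jun had 4 each in 815 and 1233 bases. The longer form TTATTTATT, which contains the pentamer, was found in Fos only among the members and in 8.59% of all genes. A stretch of 27 bases around a pentamer is given for 4 members (mm10, gene strand, 5′ to 3′), with the pentamers in capitals. The Fos stretch was centred on its TTATTTATT and holds 2 overlapping copies. The others were centred on the first pentamer of the 3′ UTR. In all, Fosb had 1 copy, Junb 2 and Nr4a1 3, so the stretches do not compare the arrangement of copies between genes.
Fos, chr12:85477104-85477130: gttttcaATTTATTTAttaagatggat
Fosb, chr7:19303327-19303353: cacccccagctATTTAtccctttcctg
Junb, chr8:84977128-84977154: tatatttgtgtATTTAacagggagggg
Nr4a1, chr15:101274691-101274717: gacagattctgATTTAtatttgtgtat

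All 10 members were well expressed, and Fos stood highest in both kinds of library. Levels between genes are compared here as CPM per kilobase of the exonic length given in the files, and the error is the SD over the 2 libraries of a group. In total RNA the mean level was 124 ± 60.6 for Fos, 90.0 ± 6.70 for Junb, 87.6 ± 36.0 for Npas4 and 76.4 ± 36.4 for Arc. Nr4a1, Egr1 and Jun followed at 50.6 ± 4.81, 46.7 ± 4.55 and 45.9 ± 14.4, and Ier2, Fosb and Egr3 were lowest at 22.2 ± 5.37, 15.8 ± 5.88 and 14.3 ± 3.75 CPM per kilobase. These means placed the members between the 81.9th percentile (Egr3) and the 98.9th percentile (Fos) of all genes tested. In the IP libraries the order was Fos, Npas4, Junb, Arc, Nr4a1, Egr1, Jun, Fosb, Ier2 and Egr3, from 117 ± 40.8 down to 17.4 ± 3.55 CPM per kilobase. Neighbours in either order overlapped in range, with the exception of Jun and the gene next below it (Ier2 in total RNA, Fosb in IP). Further apart in the order, Fos and Junb lay above Nr4a1, Egr1 and Jun in both groups with no overlap of ranges. The Fosb model in the files merges transcripts to 6243 bases, while its longest protein-coding transcript has 3782, over which its level in total RNA would be 26.1 CPM per kilobase.

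**Figure D1:**
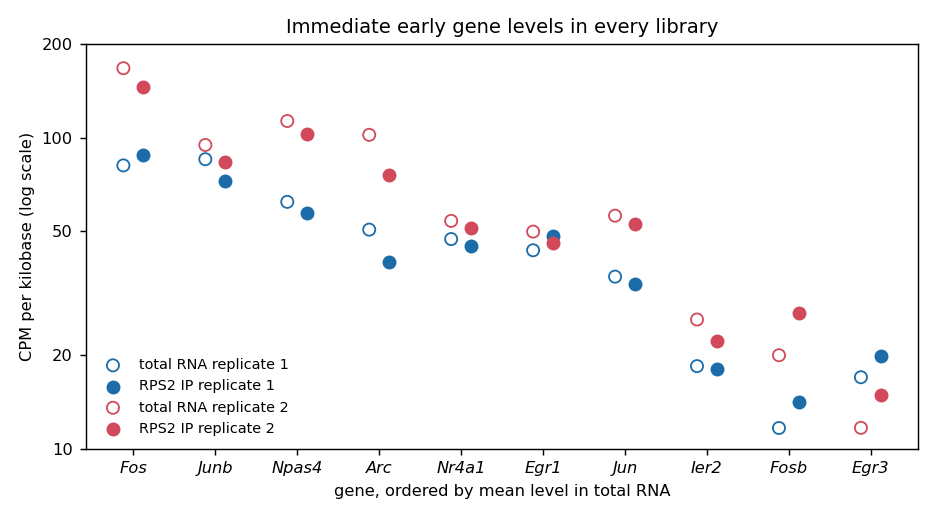
Level of the 10 immediate early genes in CPM per kilobase of exonic length (log axis) in each of the 4 libraries, with total RNA as open and RPS2 IP as filled circles and the replicate numbers in 2 colours. For Fos, Npas4, Arc, Jun and Fosb the circles of replicate 2 lie above those of replicate 1 in both kinds of library, whereas for Junb, Nr4a1 and Egr1 all 4 circles lie close together.

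Within the AP-1 family, Fos, Fosb and Jun differed at least 1.5-fold between the replicates in both kinds of library. By effective library size, Junb did not. FOS and FOSB pair with a JUN protein to form the AP-1 dimer, and Jun and Junb code for such partners. Fos (chr12:85473890-85477273, mm10) had 207 and 343 CPM in IP replicates 1 and 2, and 191 and 393 CPM in total RNA replicates 1 and 2. Fosb (chr7:19302696-19310051) had 88.0 and 170 CPM in IP and 72.8 and 125 CPM in total RNA. For both genes the libraries of replicate 2 were the high ones, and the IP and total RNA ranges overlapped. Jun (chr4:95049034-95052222), which has a single exon, had 108 and 169 CPM in IP and 114 and 179 CPM in total RNA. Junb (chr8:84974484-84978718), also of 1 exon, had 167 and 192 CPM in IP and 196 and 218 CPM in total RNA. Junb was the only member with both IP libraries on one side, here below, of both total RNA libraries, a pattern that 31.8% of all genes tested had in one direction or the other.

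Among the zinc finger factors, nuclear receptors and the neuronal bHLH-PAS factor, levels by effective library size ranged from close together to well apart between the replicate numbers. Egr1 (chr18:34859823-34864984) had 216 and 205 CPM in IP and 195 and 224 CPM in total RNA. Egr3 (chr14:70077203-70082614) had 87.6 and 65.5 CPM in IP and 74.8 and 51.4 CPM in total RNA, and was the one member with replicate 1 above replicate 2 in both kinds of library. Nr4a1 (chr15:101254269-101274795), an orphan nuclear receptor, had 158 and 180 CPM in IP and 166 and 190 CPM in total RNA. Npas4 (chr19:4984355-4990316), induced by calcium influx and known for its part in inhibitory synapse formation, had 188 and 336 CPM in IP and 204 and 371 CPM in total RNA. Its replicate 2 libraries were the high ones, as for Fos.

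Arc, whose mRNA travels into dendrites and whose protein takes part in the removal of AMPA receptors from the synapse, lies at chr15:74669083-74672570. It had 122 and 232 CPM in IP and 155 and 312 CPM in total RNA, so that within each replicate number the IP library was the lower. Ier2 (chr8:84661331-84662852) was the least abundant member per library, at 27.5 and 33.7 CPM in IP and 28.1 and 39.6 CPM in total RNA, from 126 to 381 counts.

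The comparison of IP with total RNA asked how much of each mRNA was found with the ribosomal protein relative to its abundance. Arc was the lowest of the 10 members in each replicate number and lay below all 8 transcription factors, and Fosb was the highest. The log2 ratio of IP to total RNA within replicate 1 was -0.35 for Arc (95% exact counting interval -0.48 to -0.22) and within replicate 2 was -0.43 (-0.51 to -0.34). For Fosb it was 0.27 (0.095 to 0.45) and 0.45 (0.32 to 0.57). The median of the 8 transcription factors was 0.022 in replicate 1 and -0.10 in replicate 2, which put Arc below that median by a log2 difference of -0.37 and -0.32. The lowest transcription factor was Junb in replicate 1 at -0.23 and Fos in replicate 2 at -0.20. With 2 pairs no exact test of Arc against the factors could pass a threshold of 0.05, and these values are given without one. The intervals cover counting error only, treat each count as independent and take the scaling as fixed. The removal of PCR duplicates was not named, so they may be too narrow.

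Arc and Fosb stood at opposite ends of the group without being extreme among genes in general. Arc lay at the 17.5th percentile of all genes tested in replicate 1 and at the 12.9th percentile in replicate 2, and Fosb at the 73.6th and 83.8th. The members as a set were close to the middle. Their median log2 ratio was -0.049 in replicate 1 and -0.13 in replicate 2, beside 0.012 and 0.0075 for all genes, and their SD was 0.20 and 0.26 beside 0.47 and 0.50.

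The other members fell between these ends. Egr3 was above 0 in both replicate numbers (0.23 and 0.35), and Junb (-0.23 and -0.18) and Npas4 (-0.11 and -0.14) were below 0 in both, all with counting intervals that left out 0. Jun (-0.083 and -0.084) and Nr4a1 (-0.072 and -0.074) had almost the same ratio in both replicate numbers, with intervals that held 0. Fos changed sides, from 0.11 (0.0044 to 0.23) in replicate 1 to -0.20 (-0.27 to -0.12) in replicate 2. Egr1 did the same, from 0.15 (0.040 to 0.26) to -0.12 (-0.22 to -0.025). Their intervals did not overlap between replicate numbers. The intervals may be too narrow, so whether the 2 pairs differed by more than counting error was not tested. Ier2 had -0.027 and -0.23, with intervals that both held 0.

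**Figure D2:**
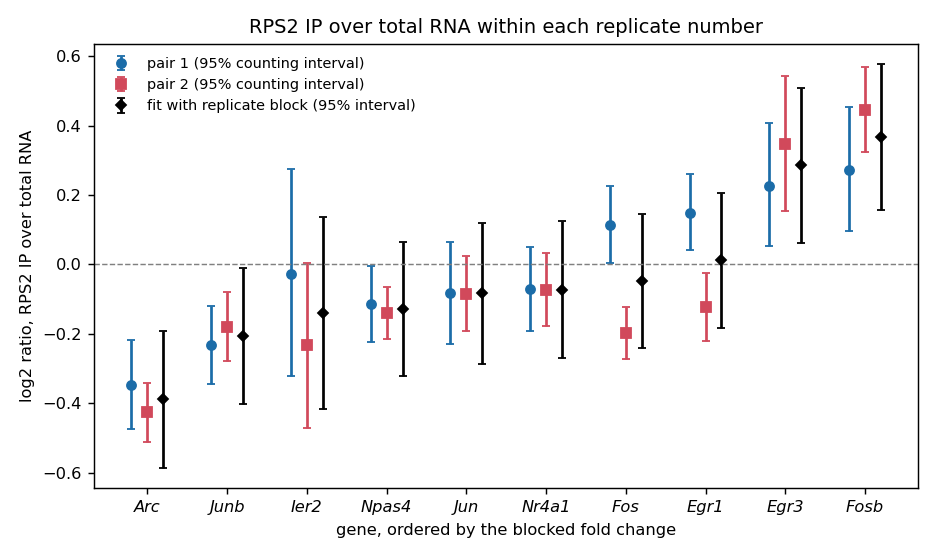
Log2 ratio of RPS2 IP to total RNA for each immediate early gene within replicate number 1 (circles) and 2 (squares) with 95% exact counting intervals, and the edgeR estimate with the replicate number as a block (diamonds) with its 95% interval. Arc lies lowest, at -0.35 and -0.43, Fosb highest, at 0.27 and 0.45, and Fos and Egr1 lie on different sides of 0 in the 2 pairs.

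In the fit that treats the libraries of a group as unpaired, edgeR's quasi-likelihood test called 0 of the 10 members and 0 of 12336 genes in either direction, which is 0% higher and 0% lower. At an unadjusted p under 0.05 there were 349 genes and 0 members, and DESeq2 called 5 genes and 0 members. The log2 fold change was -0.40 ± 0.46 (SE) for Arc and 0.38 ± 0.42 for Fosb, each with an adjusted p of 1.00.

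On the reading that an IP and a total RNA library of the same number come from the same sample, the replicate number was also fitted as a block. Arc was then lower in IP, with a log2 fold change of -0.39 ± 0.10 (SE, lower in 2 of 2 pairs, edgeR adjusted p = 0.00193), or 1.31-fold. Fosb was higher, at 0.37 ± 0.11 (2 of 2 pairs, edgeR adjusted p = 0.00799), or 1.29-fold. The calls were therefore 1 of 10 members higher and 1 of 10 lower, near the shares of all genes called, 6.63% and 7.55%. Egr3 at 0.29 ± 0.11 (edgeR adjusted p = 0.0739) and Junb at -0.21 ± 0.10 (edgeR adjusted p = 0.164) did not pass, and the other 6 members lay between -0.14 and 0.011 with adjusted p-values of 0.441 or more. For Nr4a1 the 95% interval of the log2 fold change was -0.27 to 0.13, and for Egr1 it was -0.18 to 0.21. Fosb lost its call when libraries were scaled by total count alone (0.28, edgeR adjusted p = 0.215) and with DESeq2, where its value was 0.35 (adjusted p = 0.128), while Arc kept its call in both. Those settings also moved the share of calls that were higher in IP from 46.8% to 24.4% and 29.3%.

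The members shared features of their gene models that the choice by name did not use. All 10 had fewer exons than the median gene (median 2.5 exons beside 9), and 8 of 10 had 4 exons or fewer, as did 21.0% of all genes. Nr4a1 and Npas4, with 8 exons each, were the exceptions. All 10 had a GC content above the median of all genes, from 53.4% in Egr3 to 62.6% in Junb with a median of 56.2% beside 50.5%, and 9 of 10 had a shorter exonic length in the merged gene models (median 3233 bases beside 4672), Fosb being the exception. By the longest coding transcript only 6 of 10 were shorter (3122 bases beside 3385).

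GC content and length moved with the IP ratio across genes. Spearman's rho across the genes tested was -0.305 and -0.236 with GC content and -0.148 and -0.144 with length in replicates 1 and 2, which is a description, as genes are not independent. With an offset for both properties added to the blocked fit, Fosb was higher by 0.60 ± 0.11 (SE, edgeR adjusted p = 2.0e-06) and Egr3 by 0.34 ± 0.11 (edgeR adjusted p = 0.0410). The call on Arc was lost, at -0.22 ± 0.099 (edgeR adjusted p = 0.185). That made 2 of 10 members higher (5.52% of all genes) and 0 of 10 lower (2.1% of all genes, with 72.4% of all calls being higher), at the same adjusted threshold. Arc still had the lowest value of the 10, and its distance to the median of the transcription factors was -0.25 in place of -0.33. The GC content of Arc was 59.0% and that of Fosb 56.2%.

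**Figure D3:**
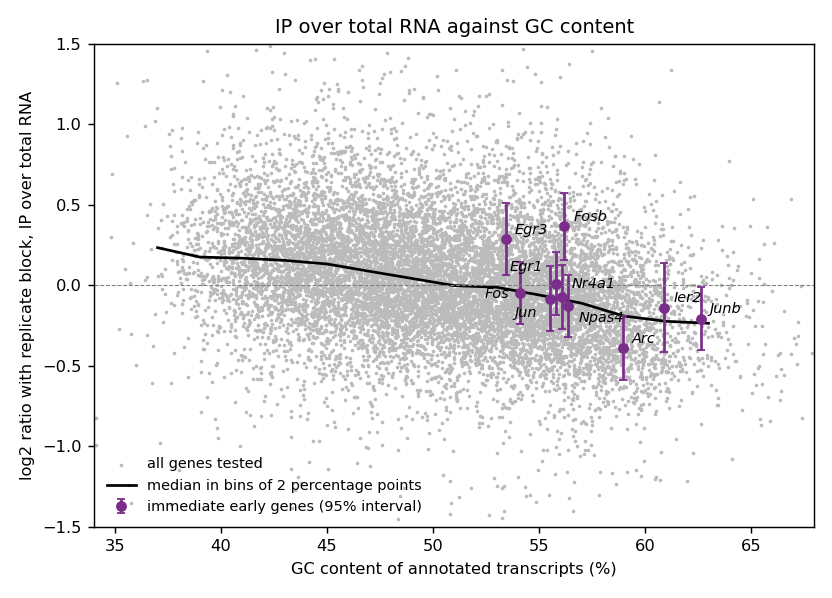
Log2 ratio of IP to total RNA from the blocked fit against the GC content of each gene's annotated transcripts, with all genes tested in grey (96 lie outside the axes), the median in bins of 2 percentage points with at least 50 genes as a line, and the immediate early genes with 95% intervals. The line falls as GC content rises, Fosb and Egr3 lie above it, and Arc lies below it.

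For several members the 2 replicate numbers lay further apart than IP and total RNA did. Arc, Fos, Fosb, Npas4 and Jun were at least 1.5-fold higher in replicate 2 than in replicate 1 in both kinds of library, which is 5 of 10 members beside 6.42% of all genes tested. No member was that much lower, beside 11.4% of all genes. In total RNA the ratio of replicate 2 to replicate 1 was 2.05-fold for Fos, 2.02-fold for Arc, 1.82-fold for Npas4, 1.71-fold for Fosb and 1.57-fold for Jun. In IP it was 1.65-fold for Fos, 1.91-fold for Arc, 1.79-fold for Npas4, 1.93-fold for Fosb and 1.57-fold for Jun. Ier2 was 1.41-fold and 1.22-fold higher in total RNA and IP, and Nr4a1, Junb and Egr1 lay between 0.951-fold and 1.15-fold. Egr3 was at 0.689-fold in total RNA and 0.748-fold in IP. The median log2 difference of the members was 0.47 in IP and 0.57 in total RNA, beside -0.0021 and -0.014 for all genes.

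Each replicate number was taken as 1 culture, so this difference has no replicate check and no test, and the IP and total RNA values are 2 readings of the same cultures. The noncoding gene Gm42418 took a larger share of the counts in replicate 1, as given above, and its part in the difference was not tested. The difference also depends on the scaling. With libraries scaled by total count alone, an alternative chosen after seeing the data, the median of all genes moved to 0.40 in IP and 0.52 in total RNA (log2, replicate 2 over 1), 8 of 10 members passed 1.5-fold above (28% of all genes) and 0 of 10 passed it below (5.01% of all genes). Junb (0.62 in IP and 0.70 in total RNA), Nr4a1 (0.61 and 0.74) and Ier2 (0.70 and 1.04) were among those above. The values for Egr3 then became -0.0059 and 0.0058, so that its direction holds only relative to the other genes.

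The same rule, by effective library size, was applied to the wider pathway. Its counts are to be read beside the 6.42% of all genes that passed it upward and the 11.4% that passed it downward. They were not repeated with scaling by total count alone, under which 28% and 5.01% of all genes passed. Of 20 late activity-regulated genes, 11 were at least 1.5-fold higher in replicate 2 in both kinds of library and 0 were lower, while 9 did not pass. Those that passed include Bdnf, the neurotrophin (2.64-fold in IP and 2.42-fold in total RNA), Nptx2, which clusters AMPA receptors (2.92-fold and 2.79-fold), and Scg2, a granin of secretory vesicles (2.63-fold and 3.07-fold). Of 34 other primary response genes, 13 were higher and 1, Zfp36, was lower. Dusp1, a dual-specificity phosphatase, was 1.93-fold and 2.21-fold higher, and Gadd45b, a stress-response gene, was 2.13-fold and 2.06-fold higher. Egr4, of the same family as Egr1 and Egr3, was at 0.976-fold and 1.02-fold.

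Of 31 upstream signalling and transcription regulators 3 were higher (Camk2d, Rps6ka2 and Crem) and 0 lower. The shares of all genes, here and for the lists below, were 6.42% and 11.4%. Srf had 0.684-fold in IP and 0.658-fold in total RNA. Of 11 proteins that bind AU-rich elements 0 were higher and 3 were lower, namely Zfp36, Zfp36l1 and Zfp36l2, the family that promotes decay of such mRNAs. Zfp36l1 was the lowest of them, at 0.207-fold in IP and 0.267-fold in total RNA. Of 11 partners of Arc at the synapse 0 were higher and 1 was lower, Iqsec2, a guanine nucleotide exchange factor of the postsynaptic density.

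**Figure D4:**
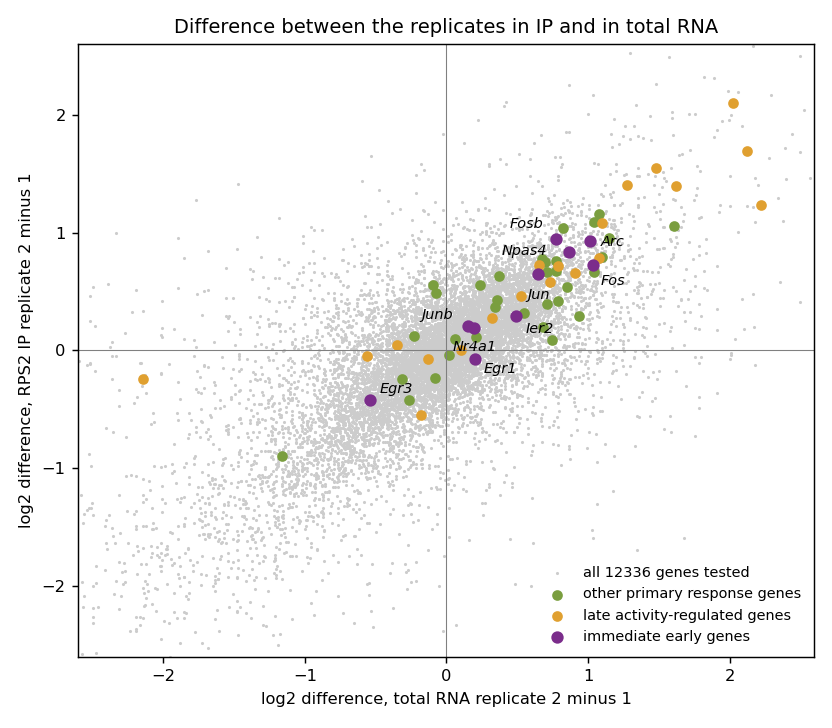
Log2 difference between replicate 2 and replicate 1 in RPS2 IP (vertical) against the same difference in total RNA (horizontal) for the 12336 genes tested in grey (187 lie outside the axes), the immediate early genes in purple, other primary response genes in green and late activity-regulated genes in orange. Arc, Fos, Fosb, Npas4 and Jun lie in the upper right, and Egr3 lies in the lower left.

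Markers of several other cell types differed between the same cultures, and their part in these values was not tested. The summed level of 8 astrocyte markers was 2168 CPM in IP replicate 1 and 716 CPM in IP replicate 2, and 1855 and 716 CPM in total RNA, with 8 of 8 markers lower in replicate 2. For 8 microglial markers the sum was 85.2 and 7.28 CPM in IP and 90.2 and 5.92 CPM in total RNA, with 8 of 8 lower and P2ry12, Tmem119, Itgam, Cx3cr1 and Aif1 at 0 in at least 1 library. The 6 fibroblast markers summed to 17.6 and 3.14 CPM in IP and 25.4 and 5.42 CPM in total RNA. Of these 6, 4 were lower in both kinds of library and 0 were higher. The 6 endothelial and mural markers summed to 24.4 and 6.29 CPM in IP and 22.7 and 8.38 CPM in total RNA. Only 1 of them was lower in both kinds of library and 1 was higher, with Cldn5 at 0 in all 4 libraries. The 8 oligodendrocyte lineage markers summed to between 63.0 and 83.8 CPM, with 5 lower in both kinds of library and 1 higher. The 10 neuronal markers summed to 4528 and 4439 CPM in IP and 4085 and 4630 CPM in total RNA. In bulk libraries fewer cells of a type and less RNA per cell cannot be told apart, and Fos, Jun, Egr1 and the Zfp36 family are also expressed by glia.

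The IP ratio of the wider pathway, in the fit with the replicate block, held a few calls in each list, with shares to be read beside the 6.63% and 7.55% of all genes called higher and lower. Among 34 other primary response genes 1 was higher, Btg2, an antiproliferative gene (log2 fold change 0.47 ± 0.17 (SE), edgeR adjusted p = 0.0398), and 2 were lower, Egr4 (-0.39 ± 0.10, edgeR adjusted p = 0.00281) and Jund (-0.36 ± 0.11, edgeR adjusted p = 0.00735), while 31 did not pass. The values of Egr4 were 105 and 102 CPM in IP beside 135 and 137 CPM in total RNA, so the groups did not overlap. Its log2 ratio was -0.36 within replicate 1 and -0.42 within replicate 2. The 2 pairs differed more for Jund (-0.65 and -0.089) and Btg2 (0.12 and 0.77). Among 20 late genes 3 were higher and 1 lower. Syt4, a synaptotagmin of dense-core vesicles, was at 0.40 ± 0.099 (edgeR adjusted p = 0.00114), Kcna1, a potassium channel, at 0.37 ± 0.11 (edgeR adjusted p = 0.00971) and Nrn1, a membrane-anchored plasticity factor, at 0.36 ± 0.10 (edgeR adjusted p = 0.00821), while Grasp, a scaffold of the synapse, was at -0.34 ± 0.12 (edgeR adjusted p = 0.0396).

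Among 31 upstream regulators 3 were higher and 3 lower, where 6.63% and 7.55% of all genes were called, shares that also stand beside the lists below. The kinase Rps6ka5 had 0.91 ± 0.24 (edgeR adjusted p = 0.00342), and the coactivator Crebbp and the factor Srf had -0.46 ± 0.10 (edgeR adjusted p = 0.000182) and -0.45 ± 0.13 (edgeR adjusted p = 0.00712). Among the 11 AU-rich element binding proteins Hnrnpd was higher (0.49 ± 0.12, edgeR adjusted p = 0.00109) and Elavl4, a neuronal Hu protein, lower (-0.54 ± 0.13, edgeR adjusted p = 0.000759). Within replicates 1 and 2 the log2 ratio was 0.58 and 0.41 for Hnrnpd and -0.26 and -0.79 for Elavl4. Among 11 partners of Arc the ubiquitin ligase Ube3a was higher (0.44 ± 0.13, edgeR adjusted p = 0.00650), with 0.24 and 0.63 within replicates 1 and 2. Iqsec2 was lower (-0.31 ± 0.10, edgeR adjusted p = 0.0182). Most of these calls were lost once GC content and length were offset. Of the genes named here Kcna1, Rps6ka5, Hnrnpd and Elavl4 were still called, while Btg2 (0.37), Ube3a (0.34), Syt4 (0.21), Nrn1 (0.19), Crebbp (-0.22), Grasp (-0.16), Srf (-0.037) and Jund (-0.031) were not, and Egr4 and Iqsec2 changed sign to 0.081 and 0.062. The calls higher and lower were then 1 and 1 among the other primary response genes, 1 and 0 among the late genes, 4 and 0 among the regulators, 1 and 1 among the AU-rich element binding proteins and 1 and 0 among the partners of Arc (5.52% and 2.1% of all genes). With DESeq2 and the block Egr4, Syt4 and Crebbp kept their calls, Btg2 and Rps6ka5 had no adjusted p, and the other genes named here lost theirs, among them Kcna1, Hnrnpd and Elavl4 (adjusted p = 0.151, 0.0999 and 0.0985). The list medians in the blocked fit ran from -0.082 for the partners of Arc to 0.12 for the late genes, beside -0.078 for the immediate early genes and 0.011 for all genes.

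The mean pattern of the 10 members over the 4 libraries, as centred log2 CPM, was -0.23 and 0.19 in IP replicates 1 and 2 and -0.22 and 0.26 in total RNA. By the smallest Euclidean distance among 7758 other genes with a mean of at least 10 CPM, the 5 nearest were Zfr (distance 0.0229), Stat5b (0.0373), Ndufa10 (0.0416), Nob1 (0.0433) and Entpd6 (0.0443). Zfr, a zinc finger protein that binds RNA, had 161 and 219 CPM in IP and 163 and 224 CPM in total RNA. The measure rests on 4 libraries of 2 cultures.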

How the data were processed

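The authors deposited raw read counts per gene for each library, made per the file headers with featureCounts 1.5.3 in stranded mode on mm10, so that reads at several loci or in several genes were not counted. Adapters were trimmed with cutadapt and reads aligned end to end with STAR. Of 31053 identifiers, 30934 had a symbol in GENCODE M21. Tests were run with edgeR 4.0.16 in R 4.3.3 (filterByExpr, TMM, glmQLFit and glmQLFTest, two-sided, Benjamini-Hochberg adjustment over 12336 genes, threshold 0.05). DESeq2 1.42.0, other scalings, other filters, single replicates left out and an offset from loess fits on GC content and length were alternatives. Library totals were 16460545 and 9941486 for IP and 5281196 and 4899718 for total RNA, and counting intervals cover counting error only.

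Ratios within a replicate number and differences between replicates are differences of log2 CPM with a prior count of 2. By the study's methods, total RNA was set aside from samples ahead of the pulldown, and libraries of the same number were taken to come from 1 culture, which no source states outright. Libraries with the same number deviated together from their group means (Pearson's r across genes 0.733), and the block lowered the biological coefficient of variation from 29.7% to 7.93%, with 1 residual degree of freedom. Nothing states whether the cultures were separate preparations. The p-values without the block measure the spread between these libraries within a group. Those with the block rest on how far the IP ratio differed between the 2 pairs, with the variation estimated largely across genes.

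The members, the gene lists and the tests were chosen with earlier results of these data known. The rule for named genes took the 10 members, the genes of each list called in either fit (at most 4 per list by adjusted p) and the 5 genes nearest in pattern. Genes named for their difference between replicates were chosen after their values were seen. Crem and Zfp36 were in 2 lists each. The names Cyr61, Mkl1, Mkl2 and Triad3 did not match a symbol, and Triad3 is another name of Rnf216, which was in the same list. Values of some single genes are left out.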

Additional observations from a re-analysis of the deposited data

How the results depend on the processing

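Without the block 0 genes were called, and with all 4 libraries the alternatives gave at most 5 lower with DESeq2 and 14 lower without a filter on low counts. The fit with the replicate block called 818 genes higher and 931 lower. It called 283 and 878 with scaling by library size alone, 158 and 382 with DESeq2, 769 and 699 without the filter, and 681 and 259 when GC content and length were offset. The immediate early genes called were 2, 1, 1, 2 and 2 in these 5 fits. Arc was called in 4 of them, at -0.39, -0.47, -0.41 and -0.37, and was at -0.22 with the offset. Fosb was called in 3, at 0.37, 0.39 and 0.60, and Egr3 only with the offset, at 0.34. The cause of these changes was not tested.

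The median of the members, -0.087 without the block, was -0.21 with library size alone, -0.16 with the block added to that and 0.0023 with the offset, and the distance of Arc to the transcription factors was then -0.25. Egr1 changed sign from 0.010 to -0.0085 with median-ratio size factors, -0.11 with library size alone, -0.0086 with DESeq2, and -0.071 and -0.0064 with the block and the latter 2 scalings. The median of all genes moved along with it, and relative to that median Egr1 stayed between -0.023 and 0.0015 in these settings. With the offset Junb changed sign to 0.035, Nr4a1 to 0.027, Egr4 to 0.081 and Iqsec2 to 0.062. Over the longest protein-coding transcript, chosen after seeing the data, the level in total RNA was 26.1 CPM per kilobase for Fosb, 114 for Junb and 69.6 for Nr4a1.

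Leaving out 1 library at a time, in the fit without the block, leaves an arm with 1 library, which is assumed to vary like the others. The count of genes lower in IP ranged from 1 to 20 (20 without IP replicate 1), the median of the members from -0.33 to 0.16, and the distance of Arc to the factors from -0.70 to -0.0022. Fos ranged from -0.52 to 0.52, Fosb from -0.18 to 0.82, Junb from -0.32 to -0.11, Jun from -0.46 to 0.28, Egr1 from -0.086 to 0.11, Egr3 from 0.029 to 0.57, Arc from -0.95 to 0.19, Nr4a1 from -0.18 to 0.024, Npas4 from -0.62 to 0.36 and Ier2 from -0.37 to 0.12. Syt4 ranged from -0.098 to 0.99, Grasp from -0.997 to 0.31 and Iqsec2 from -0.71 to 0.12. A blocked fit without 1 library was not run. Apart from these, 85 of 100 values of the members and 104 of 150 of the other named genes kept the sign and the side of the threshold that they had in the fit without the block. That fit called 0 genes, so a call in a blocked fit counts here as not kept. A missing adjusted p counts as kept. These counts therefore do not measure how firm the calls of the blocked fit are. Depth limits Ier2 most, at 126 counts in total RNA replicate 1.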
